A study of Homo sapiens with 12 samples.

Results

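FOXA1 occupancy of LNCaP chromatin was compared between cells treated with P5091, an inhibitor of the deubiquitinase USP7, and cells treated with the solvent DMSO. The comparison uses 4 of the 12 libraries of the series, chosen by their labels and not by any measured value: 2 libraries of 3 µM P5091 for 7 days and 2 libraries of DMSO for 7 days. All 4 come from LNCaP, an established androgen-responsive human prostate cancer cell line, and were made by chromatin immunoprecipitation and sequencing (ChIP-seq) with the same lot of an antibody against endogenous FOXA1. No transgene or hairpin is named in the labels of these 4, and the labels leave unsaid whether replicates come from separate cultures. The spread behind each p-value is therefore that between libraries, and it may be technical. The other libraries used beside them are 2 each of 1 µM EPZ-6438, an inhibitor of the histone methyltransferase EZH2, and of 1 µM EPZ-6438 with 3 µM P5091 (the combination), also at 7 days, and 1 each of cells with a hairpin against FOXA1 (shFoxA1) that carry HA-tagged wild-type (WT) FOXA1 or its K295A form, at 5 days with an antibody against HA.

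FOXA1 is a forkhead transcription factor that can bind its sites in closed nucleosomal DNA and opens them for the androgen receptor and other factors, which is why it is called a pioneer factor of luminal prostate cells. USP7 removes ubiquitin chains from its substrates and so can spare them from the proteasome. P5091 blocks the enzyme, and the title of the series places FOXA1 among the proteins whose stability a BUB3/USP7 complex regulates. The question addressed here is whether the genomic sites of FOXA1, or the signal at them, differ after a week of USP7 inhibition. ChIP-seq scaled to a fixed library size measures how tags are spread over sites relative to one another: an equal loss of FOXA1 at every site could leave these values in place, and FOXA1 protein was not analysed here.

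The libraries were of like depth and enrichment. Total tags were 15329943 and 16522678 in P5091 replicates 1 and 2, against 13674684 and 17225421 in DMSO replicates 1 and 2. The share of tags inside called peaks was 19.9% and 20.4% with P5091 and 20.9% and 19.7% with DMSO, so the P5091 value was the lower one in replicate 1 and the higher one in replicate 2. The replicate numbers also differed technically, since per the file headers the fragment length was 274 bases in both replicate 1 libraries, against 230 bases in P5091 replicate 2 and 220 bases in DMSO replicate 2. P5091 was therefore compared with DMSO within each replicate number.

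Most FOXA1 sites found with P5091 were also found with DMSO, and the reverse. Peaks of the 4 lists that shared at least 1 base were merged into 115312 regions, of which 45418 were called in all 4 libraries. Of the 55608 regions called in both P5091 libraries, 81.7% were called in both DMSO libraries and 94.8% in at least 1 of them. Both DMSO libraries held a peak at 57224 regions, and 79.4% of these were called in both P5091 libraries and 94.5% in at least 1. Regions called in both libraries of a treatment and in neither of the other numbered 2867 gained with P5091, which is 2.49% of all merged regions, and 3162 lost with P5091, which is 2.74%.

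Splits by replicate number were more frequent in sum than splits by treatment, which rested on replicate 2. Among regions called in exactly 2 libraries, 6029 were split by treatment (gained or lost), 10322 were split by replicate number and 3796 were split crosswise. The largest class of that kind was the 7818 regions called in both replicate 2 libraries and in neither replicate 1 library. The class of replicate 1, at 2504, was smaller than the 2867 gained or the 3162 lost regions. A single missing call was likewise spread over both treatments: 8644 regions lacked a peak in just 1 P5091 library, against 7323 in just 1 DMSO library. P5091 replicate 1 was the one missing for 5336 of them, and DMSO replicate 1 for 4389. The tag threshold, in normalized tags, was 7.83 and 6.66 in P5091 replicates 1 and 2, against 8.04 and 6.39 in DMSO replicates 1 and 2, and its part in the missing calls was not tested.

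**Figure D1:**
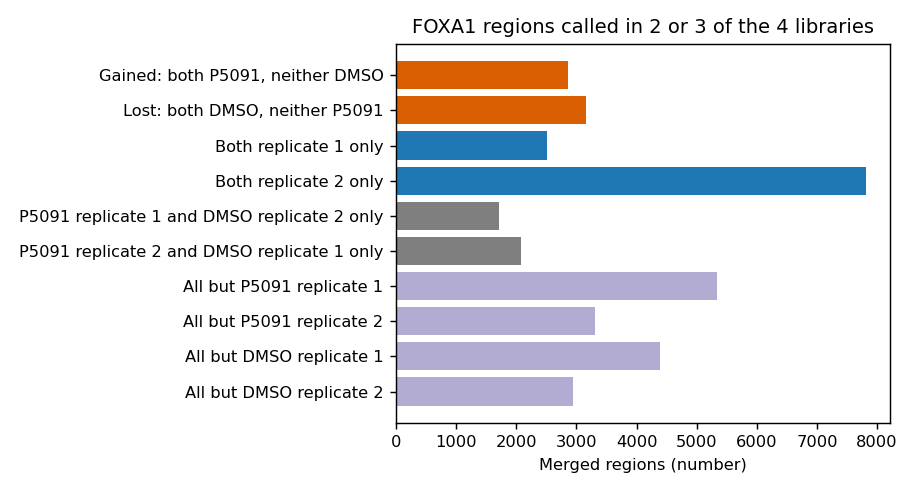
Number of merged FOXA1 regions (horizontal axis) for each pattern of calls in 2 or 3 of the 4 libraries, with gained and lost regions in orange, regions split by replicate number in blue, crosswise splits in grey and regions missing from 1 library in violet. The 2867 gained and 3162 lost regions are fewer than the 7818 called only in both replicate 2 libraries, and more than the 2504 called only in both replicate 1 libraries.

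Gained and lost regions were weak, and resembled each other and the other regions called in exactly 2 libraries. Missing calls in 2 libraries select for regions near the tag threshold. Lower values than at regions called in all 4 therefore follow in part from the definition. The median of the mean tag count was 12.35 for gained and 11.8 for lost regions. It was 13.4 for regions called only in replicate 1 and 11.85 for those only in replicate 2. The crosswise classes had 11.6 and 11.95. Gained regions had a median normalized tag count (tags in the peak, scaled by the authors to a library of 1e7 tags) of 13.0 in P5091 replicate 1 and 11.5 in P5091 replicate 2. Lost regions had medians of 13.2 in DMSO replicate 1 and 10.4 in DMSO replicate 2. Regions called in all 4 libraries had medians of 25.4 and 24.8 with P5091 and 27.1 and 23.8 with DMSO. Relative to the smallest normalized tag count that the tag threshold of its own library allows, the median was 1.71 times that level for gained and 1.64 times for lost regions, against 3.54 times for regions called in all 4. Both values reached 3 times that level at 64 of 2867 gained and 68 of 3162 lost regions. Among the 45418 regions called in all 4, all values reached it at 19408.

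Gained and lost regions were in part sites of FOXA1 in other libraries of the series. An HA-tagged WT FOXA1 peak overlapped 41.8% of gained and 36.6% of lost regions, against 80.9% of regions called in all 4. At least 1 of the EPZ-6438 and combination libraries held a peak at 79.7% of the gained and at 72.1% of the lost regions. This share was 98.5% for regions called in all 4. The other classes of exactly 2 calls lay on both sides of the gained and lost shares. Regions called only in replicate 1 had 64.3%, and 24.4% with a tagged WT peak. Those called only in replicate 2 had 81.6% and 49.0%. The HA libraries were not called against an input and have 1 library per form, so these shares describe overlap and were not tested.

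Of the gained regions, 2860 lay on chromosomes 1 to 22, X and Y and 7 on other sequences of the build, where 1 reached a mean tag count of 1006. The strongest on the chromosomes lay at chr11:85194939-85195295 (hg19), with tag counts of 52.8 and 82.3 in P5091 replicates 1 and 2 and no called peak in either DMSO library. It was also called with EPZ-6438 alone, at 89.4 and 129.3 in replicates 1 and 2, which did not contain P5091, and with tagged WT FOXA1 at 52.7. Among the 8 FOXA1 libraries, those without a call there were the DMSO and combination libraries. The other strongest gained regions were chr2:91809468-91809824, with 30.0 and 58.7 with P5091, chr2:52637999-52638355, with 49.6 and 36.9, and chr14:85826825-85827181, with 41.1 and 44.8. The region on chromosome 14 had a DMSO peak within 1000 bases, and the other 3 did not.

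The strongest lost region on the chromosomes lay at chr1:219470244-219470608, with no called peak in either P5091 library and tag counts of 53.4 and 52.2 in DMSO replicates 1 and 2. Next came chr14:49945496-49945900, with 50.5 and 45.3 in DMSO, chr2:127988969-127989358, with 52.7 and 37.2, and chr16:82182512-82182876, with 46.1 and 37.7. A P5091 peak lay within 1000 bases of the first and the second of these. Each of these regions was called in at least 1 combination library, which contained P5091. The region on chromosome 16 was called in both EPZ-6438 libraries (34.1 and 43.9) and in both combination libraries (16.3 and 30.8). So was the region on chromosome 14, at 36.7 and 30.1 and at 15.6 and 22.9. The region on chromosome 1 had a combination call in replicate 1 (15), and that on chromosome 2 in replicate 2 (28.4). A missing call is not a value of 0, because a list holds only what passed the thresholds on tags, local background and input, and each treatment had its own input. The input filter removed 10.6% and 9.89% of candidate peaks with P5091, and 11.5% and 11.7% with DMSO. The part of these filters in the gained and lost calls was not tested.

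At the 45418 regions called in all 4 libraries, no difference in FOXA1 signal between P5091 and DMSO passed the test. Values were taken as log2 (tag count + 1), each library was centred on its own median over these regions, and limma was fitted with the replicate number as a block. With Benjamini-Hochberg adjustment at 0.05, limma called 0 regions, which is 0% of those tested. The smallest adjusted p was 1.00. At an unadjusted p under 0.05 there were 2062 regions, 4.54% of those tested, with 1041 higher and 1021 lower with P5091. The interval of a single region was not narrow: its median half-width was 0.61 on the log2 scale at 95% confidence, a factor of 1.52 before any adjustment for the number of regions.

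Across regions, the difference in one replicate number was almost unrelated to that in the other. The difference between P5091 and DMSO had the same sign in both replicate numbers at 49.4% of regions, 22424 of 45418. The differences in replicates 1 and 2 correlated with Pearson r = -0.010 and Spearman rho = -0.010, given as a description because regions are not independent. The 2 differences rest on separate ChIP libraries. At least 1.5-fold higher values with P5091 in both replicate numbers were found at 328 regions (0.722%), and at least 1.5-fold lower values at 282 (0.621%). Differences of that size in opposite directions were about as frequent, with 326 regions higher in replicate 1 and lower in replicate 2, and 298 the other way round. Without centring the counts were 272 higher in both and 318 lower in both, against 181 higher in replicate 1 and lower in replicate 2, and 534 the other way round. The balance between the opposite directions thus depended on the scaling, while the opposite regions together outnumbered those of equal direction under both (624 against 610, and 715 against 590).

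**Figure D2:**
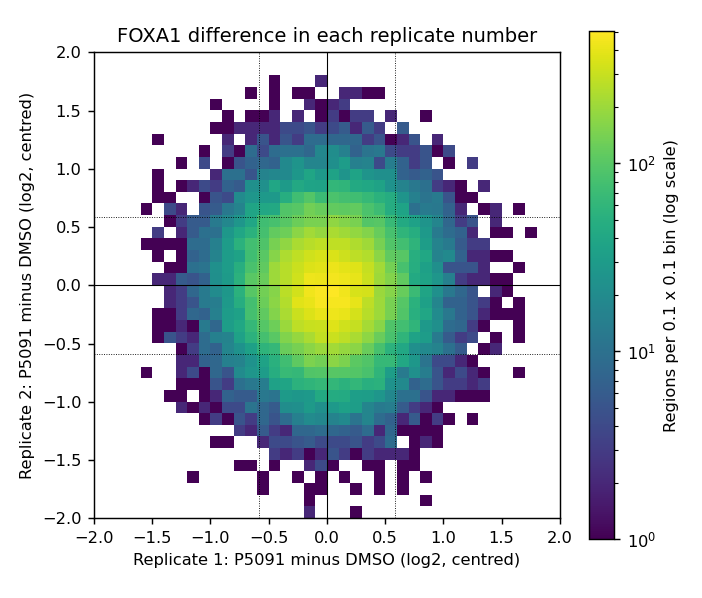
Centred log2 difference of P5091 minus DMSO at the 45418 regions called in all 4 libraries, replicate 1 on the horizontal and replicate 2 on the vertical axis; colour gives the number of regions per bin on a log scale, dotted lines mark 1.5-fold and values beyond 2 are drawn at the edge. The cloud is round, with r = -0.010, and the corners of equal direction (328 and 282 regions) hold about as many as the corners of opposite direction (326 and 298) under this scaling.

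The spread of the differences exceeded counting error in both replicate numbers, and by more in replicate 2. In replicate 1 the centred difference had an SD of 0.39 across regions on the log2 scale, where Poisson error of the tags alone gives 0.35. In replicate 2 the SD was 0.44, where counting gives 0.34. P5091 and DMSO lay within 2-fold of each other at 98.6% of regions in replicate 1 and at 97.3% in replicate 2. Averaged over both replicate numbers, 95.1% of regions lay within 1.5-fold, and 28 regions were at least 2-fold higher and 27 at least 2-fold lower with P5091. The replicates of one treatment were further apart than the treatments within a replicate number: replicate 1 minus replicate 2 had an SD of 0.57 in P5091 and of 0.52 in DMSO.

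The same order appeared in whole libraries. Over the regions called in both of a pair, log2 tag counts correlated with r = 0.911 between P5091 and DMSO in replicate 1 and with 0.885 in replicate 2. Between the replicates of P5091 r was 0.820, and between those of DMSO it was 0.853. At the 45418 regions called in all 4, the median log2 tag count differed by -0.017 on the log2 scale between P5091 and DMSO (exact permutation p = 1, two-sided, where 0.333 is the smallest p that 2 against 2 libraries can give). Within replicate numbers the difference was -0.09 in replicate 1 and 0.06 in replicate 2. Peak number differed by -0.012 on the log2 scale (exact permutation p = 1).

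The strongest FOXA1 sites carried many tags in both treatments. The highest mean tag count was at chr2:242032793-242033166, with 658.8 and 519.3 in P5091 replicates 1 and 2 and 768.6 and 669.9 in DMSO replicates 1 and 2. The P5091 value was lower in both replicate numbers and the groups did not overlap, with a log2 difference of -0.28 ± 0.18 (SE, limma, adjusted p = 1.00). Non-overlapping values are common with 2 libraries a group: P5091 lay wholly above DMSO at 10.4% of the regions called in all 4 and wholly below at 12.1%.

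At chr15:69886986-69887350 the tag counts were 606.7 and 382.5 with P5091 and 573.3 and 435.4 with DMSO, so P5091 was higher in replicate 1 and lower in replicate 2. At chr17:77809861-77810225 they were 523.8 and 361.3 with P5091 and 540.4 and 503.3 with DMSO, and the groups overlapped. Of the other sites among the leading 6, chr8:52811544-52811909 had 465.1 and 355.9 with P5091 and 484.1 and 500.4 with DMSO. The P5091 values lay below both DMSO values, but after centring only in replicate 2 (0.032 and -0.55). At chr1:145246165-145246536 the tag counts were 312.5 and 459.4 with P5091 and 377.3 and 480.1 with DMSO, and at chr2:220263528-220263892 they were 409.7 and 353.5 with P5091 and 501.7 and 358.2 with DMSO, with overlapping groups at both. The 6 log2 differences ran from -0.28 to -0.036, all with an adjusted p of 1.00 by limma, and each 95% interval of this fit included 0. Without centring the SE was smaller. The log2 difference was then -0.29 ± 0.097 (SE) at chr2:242032793-242033166, -0.26 ± 0.11 at chr17:77809861-77810225 and -0.27 ± 0.11 at chr8:52811544-52811909. Inclusion of 0 at these sites thus depended on the setting, and none of them passed adjustment in either fit.

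At the strongest sites as a class, the direction of the median depended on the scaling in replicate 1, and was negative in replicate 2 under both scalings. Among the 1000 regions with the highest mean tag count, the median centred log2 difference was 0.050 in replicate 1, against -0.16 in replicate 2. Without centring, both medians were below 0, at -0.040 in replicate 1 and -0.10 in replicate 2. After centring, P5091 was lower at 389 of them in replicate 1, at 771 in replicate 2 and at 287 in both. It was higher in both at 127. For these centred counts the share over all regions was not computed. The centred medians over all regions were 0.023 in replicate 1 and -0.023 in replicate 2. Without centring it was lower at 580, at 690 and at 383 in both, which is 38.3% of the 1000, against 26.4% of all regions tested. Within both replicate numbers, 96.5% of the 1000 differed by less than 1.5-fold. Over all regions that share was 86.9% in replicate 1 and 81.8% in replicate 2, each taken alone. When all tested regions were cut into 10 classes by mean tag count, the medians were 0.040 and -0.12 in the strongest class and 0.035 and 0.0019 in the weakest. Without centring they were -0.050 and -0.064 in the strongest class and -0.055 and 0.059 in the weakest. The same-sign share was 46.2% in the strongest class and at most 51.4% in any class.

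**Figure D3:**
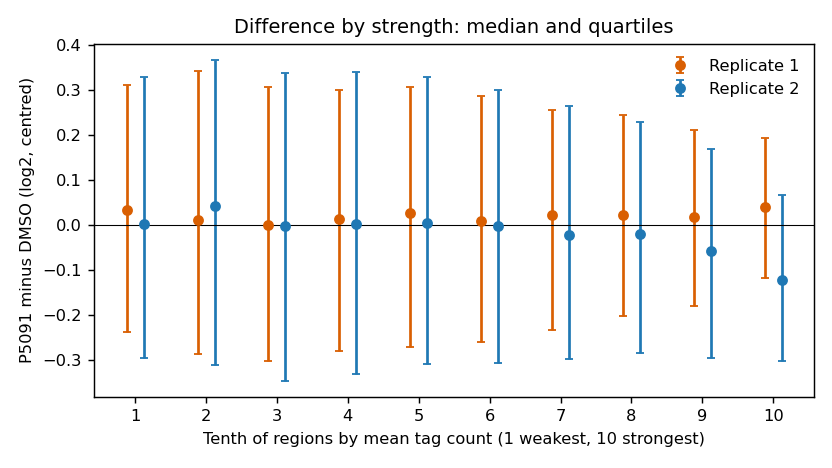
Centred log2 difference of P5091 minus DMSO (vertical axis) in 10 equal classes of regions ordered by mean tag count (horizontal axis); points are medians and bars reach to the quartiles, with replicate 1 in orange and replicate 2 in blue. These medians are after centring. Medians of replicate 1 stay between 0.00015 and 0.040, while those of replicate 2 descend to -0.12 in the strongest class.

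Chromosomes differed little from one another. The median difference over all regions was 0.023 in replicate 1 and -0.023 in replicate 2, an offset that centring each library leaves, so each chromosome was set against these values. Relative to them, the medians of the 24 chromosomes ran from -0.020 to 0.033 in replicate 1 and from -0.085 to 0.025 in replicate 2. The median lay above that of all regions on 13 chromosomes in each replicate number, in both on 5 and below it in both on 3. Chromosome 19 had the highest value in replicate 1 (0.033) and one of -0.065 in replicate 2, and chromosome 22 had the lowest in replicate 2 (-0.085) and one of 0.0015 in replicate 1.

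**Figure D4:**
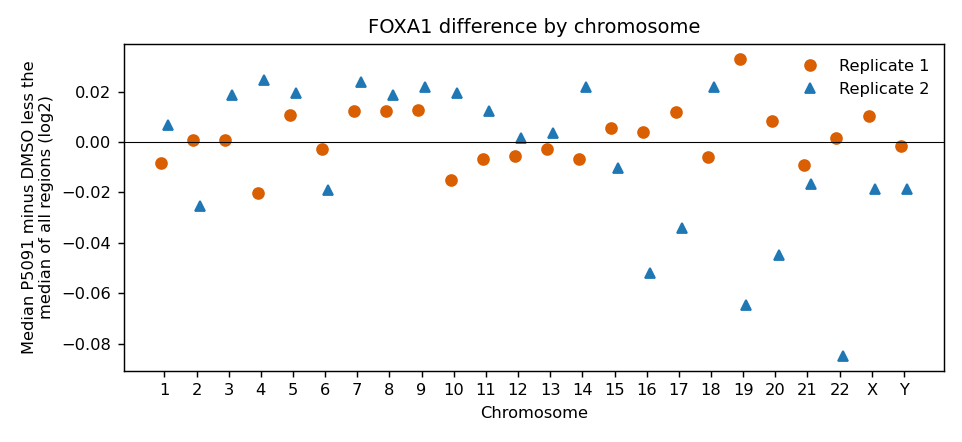
Median log2 difference of P5091 minus DMSO over the regions of each chromosome (horizontal axis), less the median of all regions in the same replicate number (vertical axis), replicate 1 as orange circles and replicate 2 as blue triangles. Values lie on both sides of 0 in each replicate number, within -0.085 and 0.033.

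Single sites at the extremes of the comparison are given for their values, and none passed. The lowest p of these belonged to a site lower with P5091, chr2:113059573-113059978, with tag counts of 9.78 and 7.87 in P5091 replicates 1 and 2 and 24.1 and 25 in DMSO replicates 1 and 2. The groups did not overlap there, and the log2 difference was -1.37 ± 0.33 (SE), with an adjusted p of 1.00 by limma. With EPZ-6438 alone the site had 14.2 and 16.3, and the combination had a peak in replicate 2, at 7.89.

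At chr3:96992003-96992414 the tag counts were 41.1 and 21.2 with P5091 and 90.7 and 40.1 with DMSO (log2 difference -0.99 ± 0.25, adjusted p = 1.00 by limma). Within replicates 1 and 2 it was -1.03 and -0.95. Fits with 1 library left out had no replicate block, so they mix replicate numbers with treatment. In these fits it was -0.50 without DMSO replicate 1 and -0.59 without P5091 replicate 2. P5091 was lower within each replicate number, yet the groups overlapped because replicate 1 was high in both. The groups also overlapped at chr11:15529159-15529525, with 94.6 and 47.8 with P5091 and 157.2 and 87.1 with DMSO. The log2 difference of -0.77 there was -0.64 and -0.91 within replicates 1 and 2. It became -0.35 without P5091 replicate 2 and without block. At chr12:110323685-110324049, with 39.1 and 23.6 with P5091 and 73.1 and 47.0 with DMSO, and at chr14:92510628-92510999, with 62.6 and 46.0 with P5091 and 115.5 and 76.1 with DMSO, the groups did not overlap. At chr16:29869821-29870209 the tag counts were 35.2 and 10.9 with P5091 and 42.4 and 44.1 with DMSO, and nearly all of the difference came from replicate 2 (-1.98, against -0.17 in replicate 1). The log2 difference of -1.08 there was -0.33 without P5091 replicate 2 and without block.

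Among sites higher with P5091, the smallest p was at chr13:62053283-62053710, with 32.0 and 46.6 with P5091 and 10.2 and 27.9 with DMSO (log2 difference 1.16 ± 0.31 SE, adjusted p = 1.00 by limma). That difference was 1.65 in replicate 1 and 0.66 in replicate 2. In fits without block, which mix replicate numbers with treatment, it was 0.38 without DMSO replicate 1 and 1.94 without DMSO replicate 2. At chr1:178116501-178116962 the tag counts were 43.1 and 47.2 with P5091 and 24.9 and 20.3 with DMSO, and at chr2:186678392-186678801 they were 50.9 and 63.5 with P5091 and 30.0 and 31.3 with DMSO. These groups did not overlap, with P5091 above DMSO in both replicate numbers. The remaining sites were chr9:4339350-4339790, with 43.7 and 38.1 with P5091 and 28.5 and 13.4 with DMSO, chr13:45461129-45461616, with 20.9 and 23 with P5091 and 11.7 and 7.55 with DMSO, and chr19:47164498-47164901, with 33.9 and 34.5 with P5091 and 13.9 and 17.4 with DMSO. The value of 7.55 in DMSO replicate 2 lay near the level of its tag threshold, 6.39 in the same unit. The 6 higher sites differed by 1.85-fold to 2.23-fold.

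**Figure D5:**
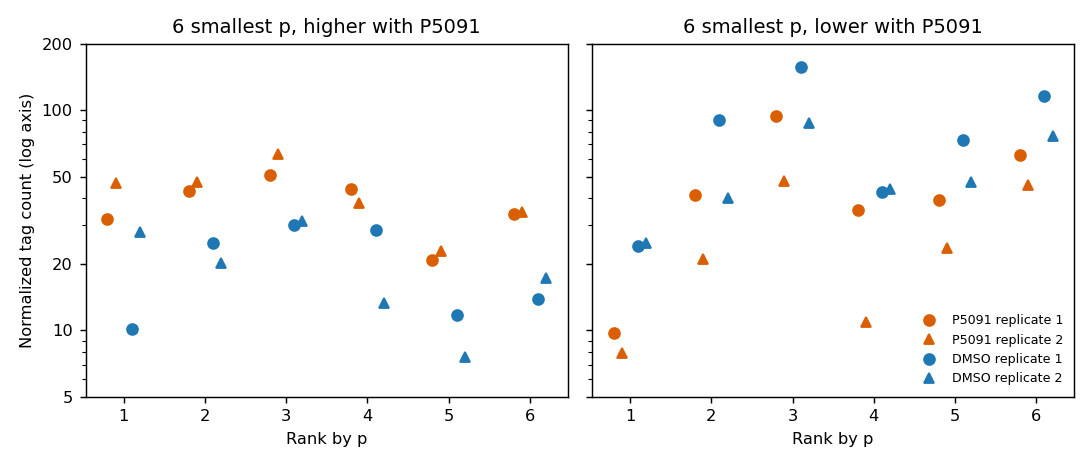
Normalized tag count on a log axis (vertical) of the 6 leading regions in each direction, higher (left) or lower (right) with P5091, ranked by limma's p (horizontal axis); P5091 in orange, DMSO in blue, replicate 1 as circles and replicate 2 as triangles. These are the extremes of 45418 regions, and none passed the adjusted threshold.

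The regions at least 1.5-fold apart in both replicate numbers could be looked at in libraries that had no part in that 1.5-fold choice. These were the combination against EPZ-6438 alone, where P5091 is again the difference. A region needed a call in each of these libraries to have values, also in combination replicate 1, which had 30811 peaks. They therefore bore on which regions remained, and the effect of this on the medians was not tested. Of the 328 higher regions, 117 had values in all 8 FOXA1 libraries, and their median centred log2 difference of combination minus EPZ-6438 was 0.23 in replicate 1 and 0.032 in replicate 2. Of the 282 lower regions, 72 had all values, with medians of 0.28 and -0.055. The same over the 24200 regions with all values was 0.028 and -0.0015. In replicate 1 both sets thus lay on the same side, above the median of all regions, although they were chosen for opposite directions; combination replicate 1 had 5.26% of its tags in peaks, against 20.2% in combination replicate 2. Across the 24200 regions, the difference of P5091 minus DMSO, averaged over replicates, and that of combination minus EPZ-6438 correlated with r = 0.046. Within replicate numbers r was -0.049 in replicate 1 and -0.0054 in replicate 2. Across them, P5091 minus DMSO in replicate 2 had r = 0.12 with combination minus EPZ-6438 in replicate 1. The reverse pairing had r = 0.0015.

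Other properties of the peaks were also close between P5091 and DMSO. The distance between the centre of the P5091 peak and that of the DMSO peak had a median of 28 bases in replicate 1 and of 23 bases in replicate 2, against 27 bases between the P5091 replicates and 26 bases between the DMSO replicates. The focus ratio, the peak caller's share of tags lying close around the centre, had medians of 0.881 and 0.885 with P5091 and 0.884 and 0.885 with DMSO. The peak caller's fold over the local window had medians of 17.6 and 20.3 with P5091 and 18.1 and 20.1 with DMSO. Each of these measures was nearer between treatments in replicate 2 than in replicate 1.

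Fold over input had lower medians with P5091 in both replicate numbers, and its differences were larger than those of fold over the local window (-0.036 and -0.0019 on the log2 scale). Its median was 22.8 and 26.7 with P5091 and 25.1 and 28.0 with DMSO, with median log2 differences of -0.10 in replicate 1 and -0.07 in replicate 2. Per the file headers, 1 input library served both P5091 replicates and another served both DMSO replicates. The 2 differences therefore share their inputs and do not repeat one another independently, and an effect of treatment on this ratio cannot be told apart from the difference between 2 input libraries. The tag counts, which do not contain the input, had median log2 differences of -0.067 and 0.034 in the same replicates without centring.

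Median differences were small with and without a tagged FOXA1 peak, and were not tested against each other. An HA-tagged WT FOXA1 peak overlapped 36740 of the regions called in all 4, with median differences between P5091 and DMSO of 0.022 in replicate 1 and -0.033 in replicate 2. The 8678 regions without such a peak were weaker, with a median of the mean tag count of 16.8 against 29.0, and their medians were 0.024 and 0.0026. The same-sign share was 49.1% with a tagged peak and 50.6% without one.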

How the data were processed

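The submitters' processing notes name Bowtie2, HOMER 4.2 and the build hg19. Peak calling was done library by library, per the file headers (findPeaks, factor mode, false discovery rate 0.001, 4-fold over a 10000-base local window and over an input library). The normalized tag count is a deposited signal scaled to 10000000 tags. The deposited focus ratio is a fraction, and the deposited findPeaks score served only for a stricter threshold. The folds over local window and input are the deposited ratio of each peak. These per-peak values are the authors'.

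In a merged region, a library's value is that of its highest peak. Tests used limma 3.58.1 (R 4.3.3, trend on), which at 1 residual degree of freedom took the spread from all regions of like tag count. In the main fit, with a median of 45418 degrees of freedom, a region's own spread had almost no weight in its p. Exact permutation tests were two-sided. Replicate 1 minus replicate 2 correlated between P5091 and DMSO with r = 0.412 across regions, and fragment lengths split likewise. Replicate numbers, from the titles, were used as a block because the comparison was set within them. The fit was tested on simulated data with known changes, where recovery of the changed regions was required only for the largest change. This check does not show whether differences of the size seen at the named regions could be detected. Named regions are the 6 higher and 6 lower with the smallest p and equal sign in both replicates, the 6 strongest, and the 4 strongest gained and lost, on placed chromosomes. The comparison and its rules were chosen with earlier results of these data known. Genes and sequences at the regions were not analysed here, since the gene tables at hand are of another build. Counting errors assume independent tags.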

Additional observations from a re-analysis of the deposited data

How the results depend on the processing

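Across all 14 alternative fits limma called 0 regions; these covered normalization, pseudocount, thresholds, overlap, the libraries in the fit and leaving out each library. The 4 fits that leave out a library have 1 library in a group, assumed to vary like the other group, and median SEs of 0.46 to 0.50, so their 0 says little. The smallest adjusted p lay between 0.751 and 1.00, and the regions at an unadjusted p under 0.05 made up 1.11% to 4.69%. Without replicate block the count was 0, with 506 regions unadjusted. The count test (edgeR) planned on recovered tags was not run, since the rounded values were not accepted as whole tags. The same-sign share was 47.4% to 49.8% over the settings that keep all 4 libraries, with 48.6% without centring and 47.4% with quantile normalization. Regions at least 1.5-fold apart in the same direction numbered 610, and 230 with a pseudocount of 5, 125 among the upper part of mean tag counts and 159 at a findPeaks score of at least 20; opposite directions gave 624, 229, 150 and 180. At that score gained and lost regions were 980 and 935. With 1 library left out, which loosens the definition, gained regions were 5816 to 14904 and lost regions 6483 to 13595. The difference in peak number turned to 0.021 at the stricter score, was -0.012 with the replicate block (exact permutation p = 1), and ranged from -0.15 to 0.12 with 1 library left out; the median tag count ranged from -0.11 to 0.074, and was -0.017 with the block. Of the 18 named regions tested, chr15:69886986-69887350 turned to 0.036 with quantile normalization and 0.051 with the trend removed; with 1 library left out it reached -0.36 to 0.24, chr1:145246165-145246536 -0.49 to 0.14 and chr2:220263528-220263892 -0.28 to 0.013. The causes were not tested. With 1 library left out, the log2 differences of the 6 higher sites ranged from 0.38 to 1.94 and the 6 lower from -1.87 to -0.33. The settings with 1 library left out had no replicate block. Their ranges for sites, peak number and median tag count therefore mix replicate numbers with treatment. Over all regions tested, counting error alone gives an SD of the differences of 0.35 and 0.34.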
